A study of Arabidopsis thaliana with 18 samples.

Results

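The comparison between the quadruple phytochrome-interacting factor mutant pifQ and the wild-type Col-0 at 22°C rests on 6 of the 18 libraries of the study, 3 of each genotype. The libraries were chosen by their genotype and temperature labels, and the differences were followed across 18078 expressed genes. Whole Arabidopsis seedlings were raised on sucrose-free MS medium under continuous white light at 22°C for 5 days, by the labels, and kept at 22°C for 24 hours more before RNA extraction. Col-0 carries no mutation, and pifQ is named for lesions in PIF1, PIF3, PIF4 and PIF5 in the Col-0 background. Allele names are not given in the sources used here, and the labels name 1 pifQ line, so effects of the 4 lesions cannot be told apart from other differences of that line. Polyadenylated RNA was sequenced from the 3′ end (3′ Tag-Seq), in which 1 transcript gives 1 tag near its end whatever its length. The other 12 libraries, of Col-0 and pifQ at 28°C and of the hec1hec2 double mutant at both temperatures, entered the model for its estimate of the spread.

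PIFs are basic helix-loop-helix transcription factors that bind the G-box and related E-box motifs. In darkness they promote hypocotyl elongation and hold back greening, and light-activated phytochromes bind them and lead to their breakdown. Warmth weakens this control by phytochrome B, and PIF4 in particular then drives growth through auxin synthesis and cell wall genes.

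The 6 libraries held 3906616 to 5196294 counts. In pifQ replicate 2 the counts fell in 3 steps along the genome relative to the other libraries. Taking the first 1452 genes used for this search, from AT1G01020 to AT1G33140, as 100%, the level was 81.7% from AT1G33170, 60.4% from AT2G37640 and 32% from AT5G04160 to the end of chromosome 5. Chromosome 5 held 10.1% of the counts of this library and 20.3% to 20.6% of those of the other 5. No such step was found in the other 17 libraries, and its cause was not tested. The calls and list medians below are therefore given with all libraries and without pifQ replicate 2.

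**Figure D1:**
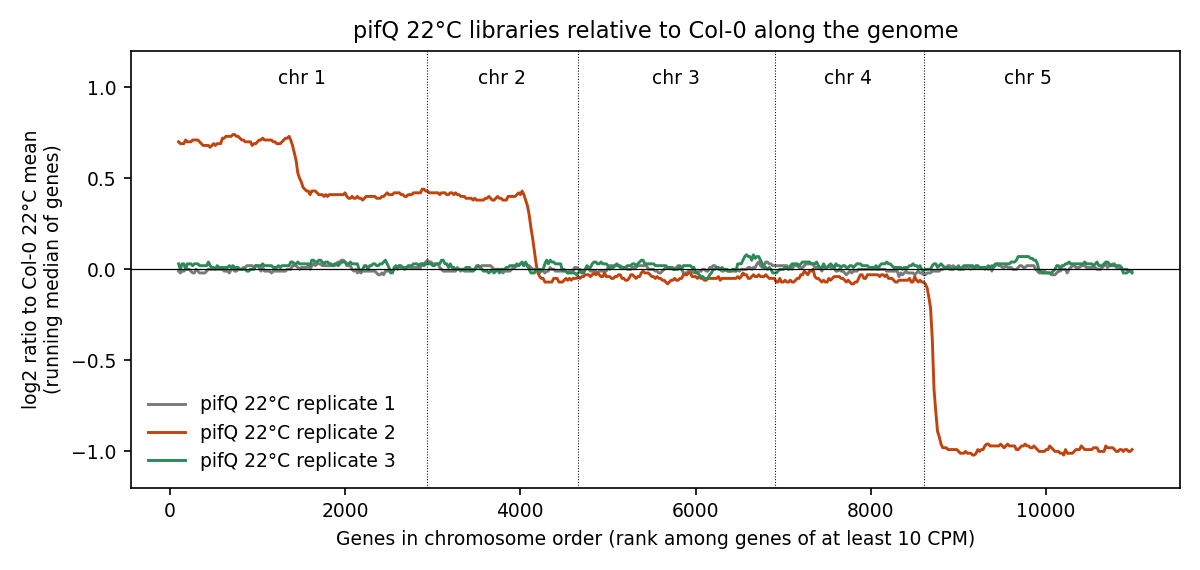
Running median over 201 genes of the log2 ratio of each pifQ 22°C library to the Col-0 22°C mean, for 11083 genes in chromosome order, with dotted lines at chromosome borders. Replicates 1 and 3 stay between -0.05 and 0.08, and replicate 2 falls in steps from 0.74 to -1.02.

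At 22°C only a few genes separated pifQ from Col-0. A gene was called when it differed by at least 2-fold at a false discovery rate (FDR) of at most 0.05 in edgeR's quasi-likelihood test. With all libraries 10 of 18078 genes were called, which is 0.0553%. Of these, 2 were higher in pifQ (0.0111%) and 8 were lower (0.0443%). Without pifQ replicate 2, 8 of 18385 genes were called (0.0435%), 4 higher (0.0218%) and 4 lower (0.0218%). The calls shared by both fits were PIF3, PIF5, QQS, AT1G75945, PGL2 and LTP2. Without a fold cutoff, 12 genes (0.0653%) passed the FDR when replicate 2 was left out, and 10 with all libraries. A fit that kept replicate 2 with an offset for each of its segments called 12 genes (0.0664%). At an unadjusted p under 0.05 there were 2034 genes (11.3%) with all libraries and 1377 (7.49%) without replicate 2. The 3 pifQ and 3 Col-0 libraries did not overlap in 2269 genes (12.6%), against which any single gene without overlap below is to be read. The low number of calls has a limit of precision beside it. The 95% confidence interval of the log2 fold change lay within 1 of 0 for 14568 of 18077 genes (80.6%). Without replicate 2 this held for 14473 of 18383 genes (78.7%). For the rest the interval reached or went beyond a 2-fold difference.

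**Figure D2:**
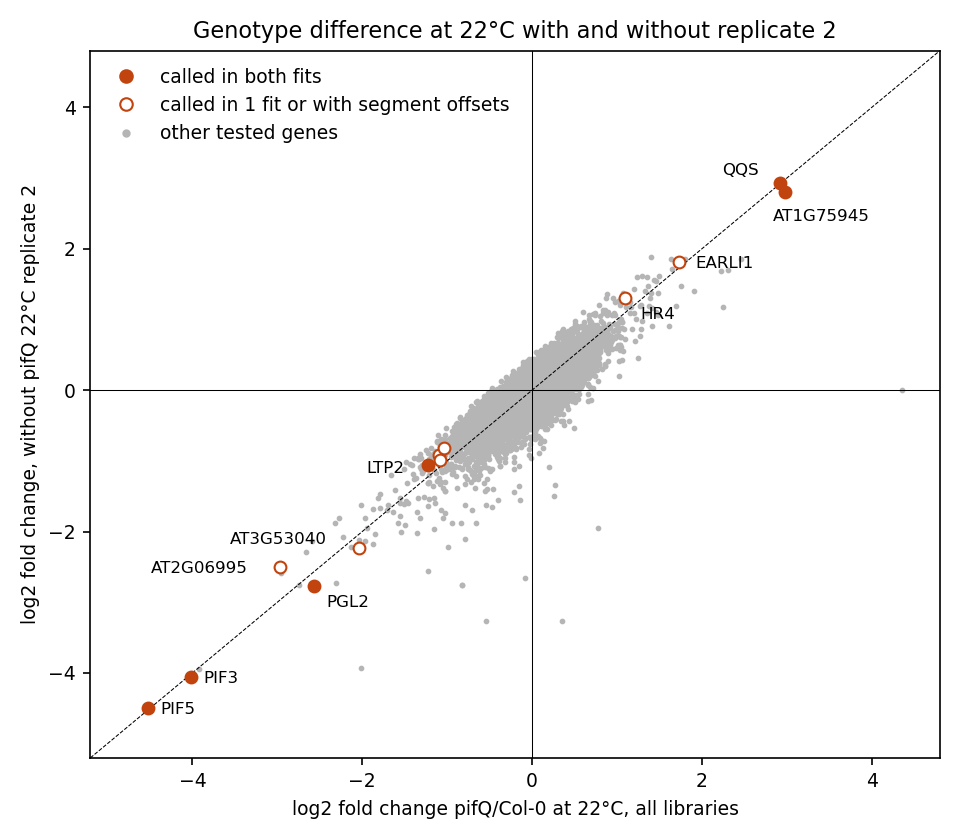
Log2 fold change of pifQ over Col-0 at 22°C with all libraries (x axis) and without pifQ replicate 2 (y axis) for every gene tested in both fits. The 6 genes called in both fits (filled) lie near the diagonal, and the 3 unlabelled open circles beside LTP2 are ICL, MLS and MAP18.

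The targeted genes come first because they check the labels. PIF3 had 4, 4 and 5 counts in pifQ replicates 1, 2 and 3, against 56, 81 and 74 in Col-0. PIF5 had 7, 7 and 12 counts against 170, 206 and 215. Both were low in every pifQ library with no overlap between the genotypes. PIF3 fell by 4.02 ± 0.31 on the log2 scale (SE, edgeR FDR = 9.7e-09) and PIF5 fell by 4.52 ± 0.23 (edgeR FDR = 3.3e-12), and without replicate 2 the log2 fold changes were -4.06 and -4.49. PIF1 and PIF4, in contrast, kept their 3′ tags. PIF1 had 12.7, 17.1 and 15.9 counts per 1000000 counts of the library, scaled by TMM normalization (CPM), in pifQ. In Col-0 it had 10.8, 11.4 and 11.2 CPM. The log2 fold change was 0.44 ± 0.17 (edgeR FDR = 0.38). PIF4 had 18.3, 15.6 and 25.1 CPM against 15.1, 17.3 and 14.6 CPM, a log2 fold change of 0.33 ± 0.19 (edgeR FDR = 0.51). Where each lesion lies relative to the 3′ end is not given in the sources used here, so the tags of PIF1 and PIF4 check neither allele.

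The other members of the family showed no call in either fit. PIF7, which with PIF4 acts in growth at warm temperature, had 18.1, 5.71 and 17.5 CPM in pifQ and 12, 14.3 and 8.91 CPM in Col-0. Its low library was replicate 2, where it lies in the last segment of the count loss, and without that library its log2 fold change was 0.61 with a 95% interval of 0.16 to 1.05 (edgeR FDR = 0.48). PIF8 differed by -0.06 ± 0.18 and PIF6 by 0.40 ± 0.50 on the log2 scale. PHYB, the photoreceptor that controls PIF stability, had a log2 fold change of 0.09 ± 0.21 with all libraries and -0.05 ± 0.21 without replicate 2.

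Beyond the targeted genes, no called gene belonged to the lists of PIF targets, auxin, cell wall or greening genes described below. Promoters are shown first, because the motifs that PIFs bind can be read in them. The windows hold the 250 bases before the annotated gene start on TAIR10.1 (RefSeq), 5′ to 3′ on the strand of the gene, with the G-box CACGTG in capitals. QQS, AT1G75945 and LTP2 were called with and without replicate 2. Of the called targeted genes PIF3 and PIF5, PIF5 is the one whose window holds a G-box. The windows of PIF1 and PIF4 are not described here. AT3G53040 was called in neither of these fits but with segment offsets for replicate 2. PGL2 was called in both fits, and its window, which holds neither motif, is not printed. The windows lie at chr3:12348797-12349046, plus strand (QQS), chr1:28515917-28516166, minus strand (AT1G75945), chr2:16127926-16128175, plus strand (LTP2), chr3:21830838-21831087, minus strand (PIF5) and chr3:19666498-19666747, minus strand (AT3G53040).
QQS: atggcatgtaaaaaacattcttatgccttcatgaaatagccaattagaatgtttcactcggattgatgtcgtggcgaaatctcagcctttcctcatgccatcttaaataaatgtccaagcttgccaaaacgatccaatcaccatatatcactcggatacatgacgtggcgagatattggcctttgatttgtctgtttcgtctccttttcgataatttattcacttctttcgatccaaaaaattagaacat
AT1G75945: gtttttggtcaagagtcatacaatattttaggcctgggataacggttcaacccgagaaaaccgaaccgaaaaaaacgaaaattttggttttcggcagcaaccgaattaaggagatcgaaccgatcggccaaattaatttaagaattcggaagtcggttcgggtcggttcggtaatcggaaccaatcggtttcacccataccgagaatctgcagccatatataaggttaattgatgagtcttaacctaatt
LTP2: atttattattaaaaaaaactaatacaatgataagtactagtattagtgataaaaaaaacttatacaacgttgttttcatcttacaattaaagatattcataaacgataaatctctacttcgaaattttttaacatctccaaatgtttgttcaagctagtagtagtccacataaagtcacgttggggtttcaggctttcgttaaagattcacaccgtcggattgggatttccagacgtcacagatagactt
PIF5: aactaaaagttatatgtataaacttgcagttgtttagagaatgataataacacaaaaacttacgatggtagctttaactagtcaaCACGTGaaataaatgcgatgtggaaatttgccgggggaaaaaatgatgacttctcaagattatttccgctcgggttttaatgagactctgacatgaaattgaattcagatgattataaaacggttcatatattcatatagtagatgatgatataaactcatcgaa
AT3G53040: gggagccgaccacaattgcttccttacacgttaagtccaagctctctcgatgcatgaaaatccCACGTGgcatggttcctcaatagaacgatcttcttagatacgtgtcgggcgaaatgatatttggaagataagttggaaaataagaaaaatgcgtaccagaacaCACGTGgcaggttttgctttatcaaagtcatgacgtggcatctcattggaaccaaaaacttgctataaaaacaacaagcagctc
The PIF5 window held 1 G-box, at 165 to 160 bases before the start, and that of AT3G53040 held 2, at 187 to 182 and at 84 to 79 bases before it. The motifs searched, on both strands, were the palindromic G-box CACGTG and the PIF-binding E-box CACATG, read as CATGTG on the other strand. Among 18074 tested genes with a window 7.55% held a G-box, 11.1% the E-box and 17.6% either. Of the 8 called genes other than PIF3 and PIF5, 0 held either motif in this window, and the same was true of the 6 such genes called without replicate 2. With the calls under segment offsets added there were 11 such genes, and 1 of them, AT3G53040, held a G-box (9.09%). The absence says only that these letters do not occur in these 250 bases.

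QQS (Qua-Quine Starch, AT3G30720, chr3:12349047-12349933) is a gene without relatives in other species whose protein affects the division of carbon and nitrogen between starch and protein. It was high in all pifQ libraries, with 146, 134 and 131 CPM against 18.9, 18.9 and 16.5 CPM in Col-0. The means were 137 ± 7.91 and 18.1 ± 1.36 CPM (SD, n = 3 each), and QQS rose 7.56-fold, a log2 fold change of 2.92 ± 0.20 (edgeR FDR = 8.7e-10). Without replicate 2 the log2 fold change was 2.93 ± 0.17. In the hec1hec2-labelled libraries at 22°C the mean was 2.01 ± 1.76 CPM, below Col-0, so QQS was in a different range in each of the 3 genotypes. HEC1 itself stood at 659 ± 83 CPM in the libraries labelled hec1hec2 against 10.1 ± 3.92 CPM in Col-0, so that label is used here only as given.

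AT1G75945 (chr1:28515245-28515916), annotated as an uncharacterized protein, was the other gene that rose in both fits. It had 8.27, 13.2 and 10.4 CPM in pifQ and 1.79, 1.36 and 0.848 CPM in Col-0, which in counts was 43, 51 and 45 against 7, 6 and 4. The groups did not overlap, and the log2 fold change was 2.98 ± 0.32 (edgeR FDR = 7e-06), or 2.80 ± 0.35 without replicate 2. The libraries labelled hec1hec2 at 22°C had 6.18 ± 1.64 CPM (SD, n = 3), against a Col-0 mean of 1.33 CPM.

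PGL2 (AT3G49360, chr3:18303007-18304466) encodes a 6-phosphogluconolactonase, an enzyme type of the oxidative pentose phosphate pathway. It had 8, 8 and 5 counts in pifQ and 39, 45 and 39 in Col-0, or 1.54, 2.08 and 1.15 CPM against 9.98, 10.2 and 8.27 CPM. It fell by 2.57 ± 0.33 on the log2 scale (edgeR FDR = 0.00012), and the value without replicate 2 was -2.77 ± 0.38. None of its related copies was called. PGL1 had a log2 fold change of 0.55, PGL3 of -0.35, PGL4 of -0.34 and PGL5 of -0.71, with edgeR FDR from 0.41 to 0.81. PGL2 was named after its values were seen, since its Col-0 mean of 9.49 CPM lay just under the minimum of 10 CPM for a named gene.

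LTP2 (AT2G38530, chr2:16128176-16129399), a lipid transfer protein of the cell surface, had 63.6, 35.8 and 40.8 CPM in pifQ and 107, 121 and 101 CPM in Col-0. All pifQ libraries were lower, with replicate 1 nearest to Col-0. LTP2 fell by 1.22 ± 0.21 on the log2 scale (edgeR FDR = 0.012), and by 1.06 ± 0.19 without replicate 2 (edgeR FDR = 0.012). It was not called without Col-0 replicate 2 or without pifQ replicate 3 (log2 fold changes -1.14 and -1.12). In the libraries labelled hec1hec2 it had 38.9 ± 2.25 CPM. Its neighbour LTP1, a closely related copy, had 745, 737 and 752 CPM in pifQ and 915, 942 and 945 CPM in Col-0, a log2 fold change of -0.33 ± 0.09 (edgeR FDR = 0.29). How tags that match both copies were assigned is not given in the sources used here, so the division between LTP1 and LTP2 is uncertain.

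**Figure D3:**
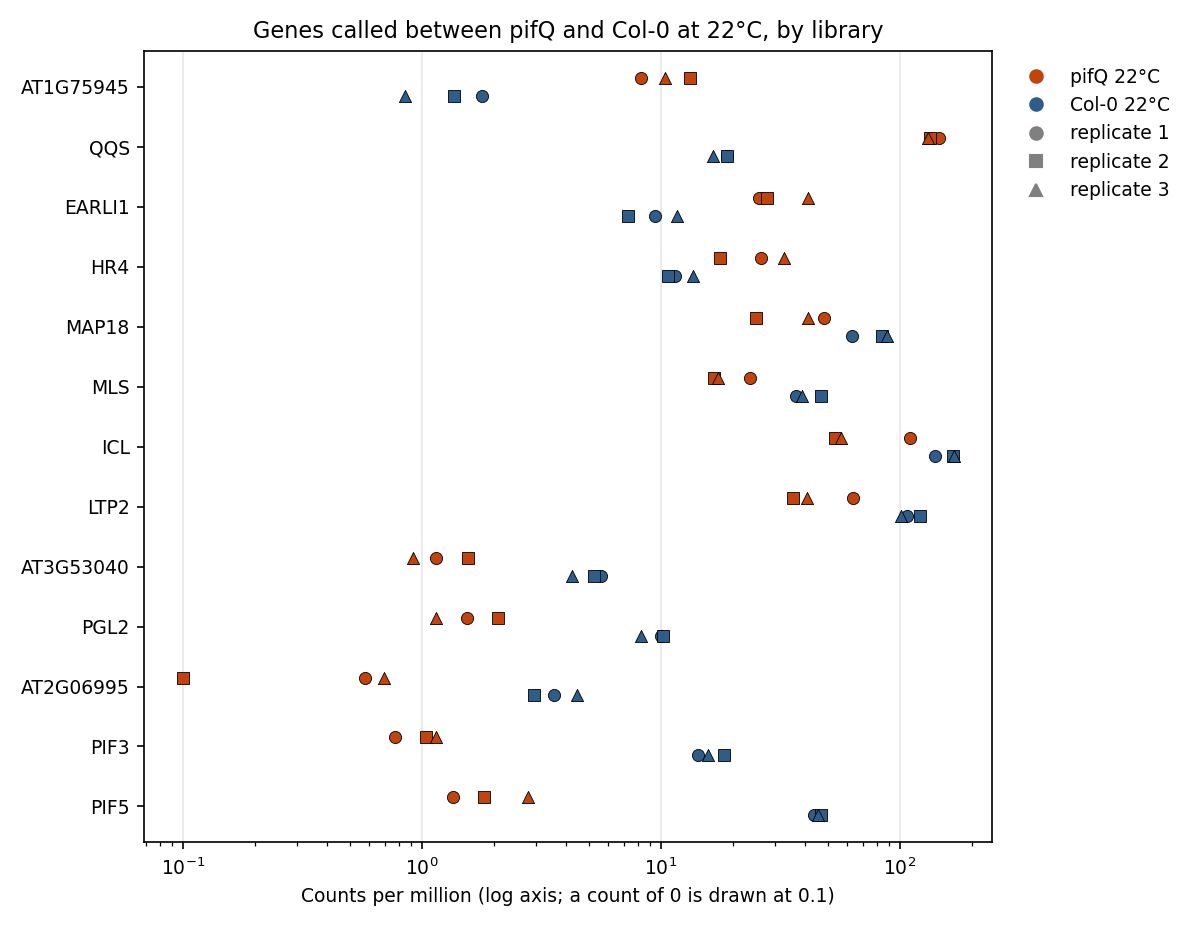
CPM (log axis) of the 13 genes called with all libraries, without pifQ replicate 2 or with segment offsets for that replicate, in each pifQ (red) and Col-0 (blue) library at 22°C, with replicates as circles, squares and triangles. The genotypes do not overlap for any of the 13, and for ICL and LTP2 replicate 1 is the pifQ library nearest to Col-0.

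Some genes were called with all libraries but not without pifQ replicate 2, and these were named after their values were seen. The pair that stood out were ICL and MLS, isocitrate lyase and malate synthase, the enzymes particular to the glyoxylate cycle, by which seedlings turn stored oil into sugar. ICL had 110, 53.7 and 56.7 CPM in pifQ against 140, 167 and 168 CPM in Col-0. MLS had 23.5, 16.6 and 17.3 CPM against 36.9, 46.6 and 38.8 CPM. The genotypes did not overlap for either gene, and replicate 1 was the pifQ library nearest to Col-0 for both. ICL fell by 1.10 ± 0.21 on the log2 scale with all libraries (edgeR FDR = 0.036) and MLS fell by 1.08 ± 0.20 (edgeR FDR = 0.029). Without replicate 2 both still passed the FDR (0.042 and 0.04, edgeR) but their log2 fold changes of -0.92 and -0.99 were short of the 2-fold cutoff. With segment offsets for replicate 2 both stayed called, at -1.08 for ICL (edgeR FDR = 0.0017) and -1.06 for MLS (edgeR FDR = 0.0029). The libraries labelled hec1hec2 had 38.6 ± 7.98 CPM of ICL and 15.5 ± 3.97 CPM of MLS at 22°C (SD, n = 3), also below the Col-0 means of 159 and 40.7 CPM. Leaving out pifQ replicate 3 or any Col-0 library also ended both calls, with log2 fold changes of -1.18 to -0.94 for ICL and -1.14 to -0.97 for MLS. For 14 genes of the glyoxylate cycle and seed oil mobilisation, a list added after these values were seen, the median log2 fold change was -0.18 with all libraries and -0.13 without replicate 2, and only ICL and MLS were called, in the former and with segment offsets. The next member, MFP2 of fatty acid beta-oxidation, had a log2 fold change of -0.35 without replicate 2 (edgeR FDR = 0.56).

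MAP18, a microtubule-associated protein, had 47.9, 24.9 and 41.3 CPM in pifQ and 63.2, 84.1 and 88.4 CPM in Col-0. It lies in the last segment of the count loss, and its log2 fold change of -1.04 ± 0.19 (edgeR FDR = 0.028) became -0.82 ± 0.16 without replicate 2 (edgeR FDR = 0.029), short of 2-fold, and -0.78 with segment offsets (edgeR FDR = 0.0084), also short of it. AT2G06995, annotated as other RNA, had 3, 0 and 3 counts in pifQ and 14, 13 and 21 in Col-0. Its log2 fold change of -2.97 ± 0.54 (edgeR FDR = 0.028) was not called without replicate 2, at -2.50 ± 0.55 (edgeR FDR = 0.08), but it was with segment offsets, at -3.07 (edgeR FDR = 0.0054). Neither MAP18 nor AT2G06995 was called without pifQ replicate 3 or without Col-0 replicate 2 or 3, and AT2G06995 was not called without Col-0 replicate 1 either. The counts of AT2G06995 are so low that a few tags decide the call.

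Leaving out replicate 2 brought 2 more genes above the cutoffs, both higher in pifQ. HR4, a homolog of the powdery mildew resistance gene RPW8, had 26.3, 17.6 and 32.7 CPM in pifQ and 11.5, 10.7 and 13.6 CPM in Col-0. Its log2 fold change was 1.10 ± 0.23 with all libraries (edgeR FDR = 0.071) and 1.30 ± 0.20 without replicate 2 (edgeR FDR = 0.0011). EARLI1, of the lipid-transfer protein superfamily, had 25.8, 27.8 and 41.3 CPM against 9.47, 7.27 and 11.7 CPM. Its log2 fold change was 1.73 ± 0.39 (edgeR FDR = 0.13) and 1.81 ± 0.37 without replicate 2 (edgeR FDR = 0.04). Its related neighbour AZI1 had 99.2, 72.6 and 87.6 CPM against 62.5, 48.8 and 55.3 CPM, with no overlap and an edgeR FDR of 0.25 without replicate 2. AT3G53040, a late embryogenesis abundant protein gene of the kind expressed in maturing seeds, had 6, 6 and 4 counts against 22, 23 and 20. Its log2 fold change was -2.04 ± 0.42 (edgeR FDR = 0.071), -2.23 ± 0.48 without replicate 2 (edgeR FDR = 0.08) and -2.02 ± 0.42 with segment offsets (edgeR FDR = 0.04).

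Where the called genes lie relative to the targeted PIF genes was measured as well. On the same chromosome AT2G06995 lay 1.07 Mb from PIF1, LTP2 1.76 Mb from PIF4, PGL2 3.52 Mb and QQS 9.48 Mb from PIF5, and AT1G75945 25.4 Mb from PIF3. Of all tested genes 9.55%, 15.4%, 25.2%, 36.4% and 59.1%, respectively, lie at least as near to a targeted PIF gene. ICL, HR4 and AT3G53040 lay 14.2, 3.09 and 2.16 Mb from PIF5, with 40%, 23.6% and 18% of tested genes as near. MLS and MAP18 on chromosome 5 and EARLI1 on chromosome 4 have no targeted PIF gene on their chromosome. The part of linked sequence in these differences was not tested.

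None of the PIF-linked genes named next was called at 22°C in either fit. Counts were low, and the 95% intervals of IAA29 and HFR1 include a 2-fold fall. YUC8, a flavin monooxygenase of auxin synthesis, had 4.04, 4.41 and 3.46 CPM in pifQ and 6.4, 3.41 and 3.18 CPM in Col-0. IAA29, an auxin-inducible Aux/IAA repressor, had 7, 4 and 6 counts against 2, 8 and 8. The groups overlapped for both, and the log2 fold changes were -0.10 (95% interval -0.74 to 0.54) and -0.12 (-1.12 to 0.88). HFR1, an atypical helix-loop-helix protein that sequesters PIFs, had 13, 10 and 5 counts against 12, 11 and 14, a log2 fold change of -0.44 (-1.18 to 0.30). PIL1, a relative of the PIFs induced by shade, had 0, 1 and 0 counts against 2, 2 and 4. The groups did not overlap, but it was too low to be tested. HEC1 and HEC2, helix-loop-helix partners of the PIFs, were low in both genotypes. HEC1 had 6.15, 3.37 and 4.84 CPM in pifQ and 8.45, 14.5 and 7.21 CPM in Col-0, with no overlap but a log2 fold change of -1.04 ± 0.30 that did not pass (edgeR FDR = 0.3). Its lowest library was pifQ replicate 2, where it lies in the last segment of the count loss. Without that library the log2 fold change was -0.86 ± 0.31 (edgeR FDR = 0.48). With segment offsets it was -0.80 (edgeR FDR = 0.49). Over the settings tried, HEC1 was called in 1 of 16, that without a filter (edgeR FDR = 0.015), and its log2 fold change was -0.67 without Col-0 replicate 2. HEC2 had 5, 1 and 0 counts against 3, 14 and 10, groups that overlapped, and was tested only without replicate 2, with a log2 fold change of -1.93 ± 0.76 (edgeR FDR = 0.54).

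Whole gene lists likewise held few calls. Of 15 shade and PIF target genes 11 were tested and 0 were called, with a median log2 fold change of -0.12 against 0.01 over all genes (-0.09 against 0.00 without replicate 2). The one furthest from 0 was ST2A, a sulfotransferase acting on jasmonates, with 1.15, 1.3 and 0.692 CPM in pifQ against 3.07, 2.27 and 3.39 CPM (log2 fold change -1.46 ± 0.38, edgeR FDR = 0.23). The medians were -0.10 for 7 tested auxin synthesis genes, 0.00 for 21 Aux/IAA genes, -0.06 for 5 GH3 genes and -0.03 for 50 SAUR genes, or -0.09, -0.01, -0.04 and -0.07 without replicate 2, and no member was called in either fit. Genes of greening, which PIFs repress in darkness, were also near 0 in these light-grown seedlings. The median was 0.03 for 20 antenna proteins, 0.03 for 23 photosystem and Rubisco genes, -0.03 for 21 chlorophyll synthesis genes and 0.01 for 12 carotenoid genes, again with 0 calls. Without replicate 2 these medians were -0.05, -0.08, -0.07 and 0.10. Among chlorophyll genes PORA, the protochlorophyllide reductase of dark-grown seedlings, had 1.35, 0.519 and 0.461 CPM in pifQ against 2.56, 2.95 and 3.6 CPM in Col-0. The groups did not overlap, but at these few tags the log2 fold change of -1.87 ± 0.53 did not pass (edgeR FDR = 0.29). Without replicate 2 the lowest log2 fold change among the chlorophyll genes was -1.68. The medians were 0.07 for 10 photoreceptor genes and -0.08 for 19 clock genes, or 0.05 and 0.09 without replicate 2. The lists of greening regulators, B-box, gibberellin, brassinosteroid, ethylene, glucosinolate, salicylic acid and jasmonate genes had medians from -0.08 to 0.09 with all libraries and 0 calls. Without replicate 2 they ran from -0.21 to 0.09, lowest for B-box (-0.21), salicylic acid (-0.18), gibberellin (-0.13) and ethylene (-0.13) genes. In the low energy list (median 0.06, or 0.09 without replicate 2) only QQS was called.

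**Figure D4:**
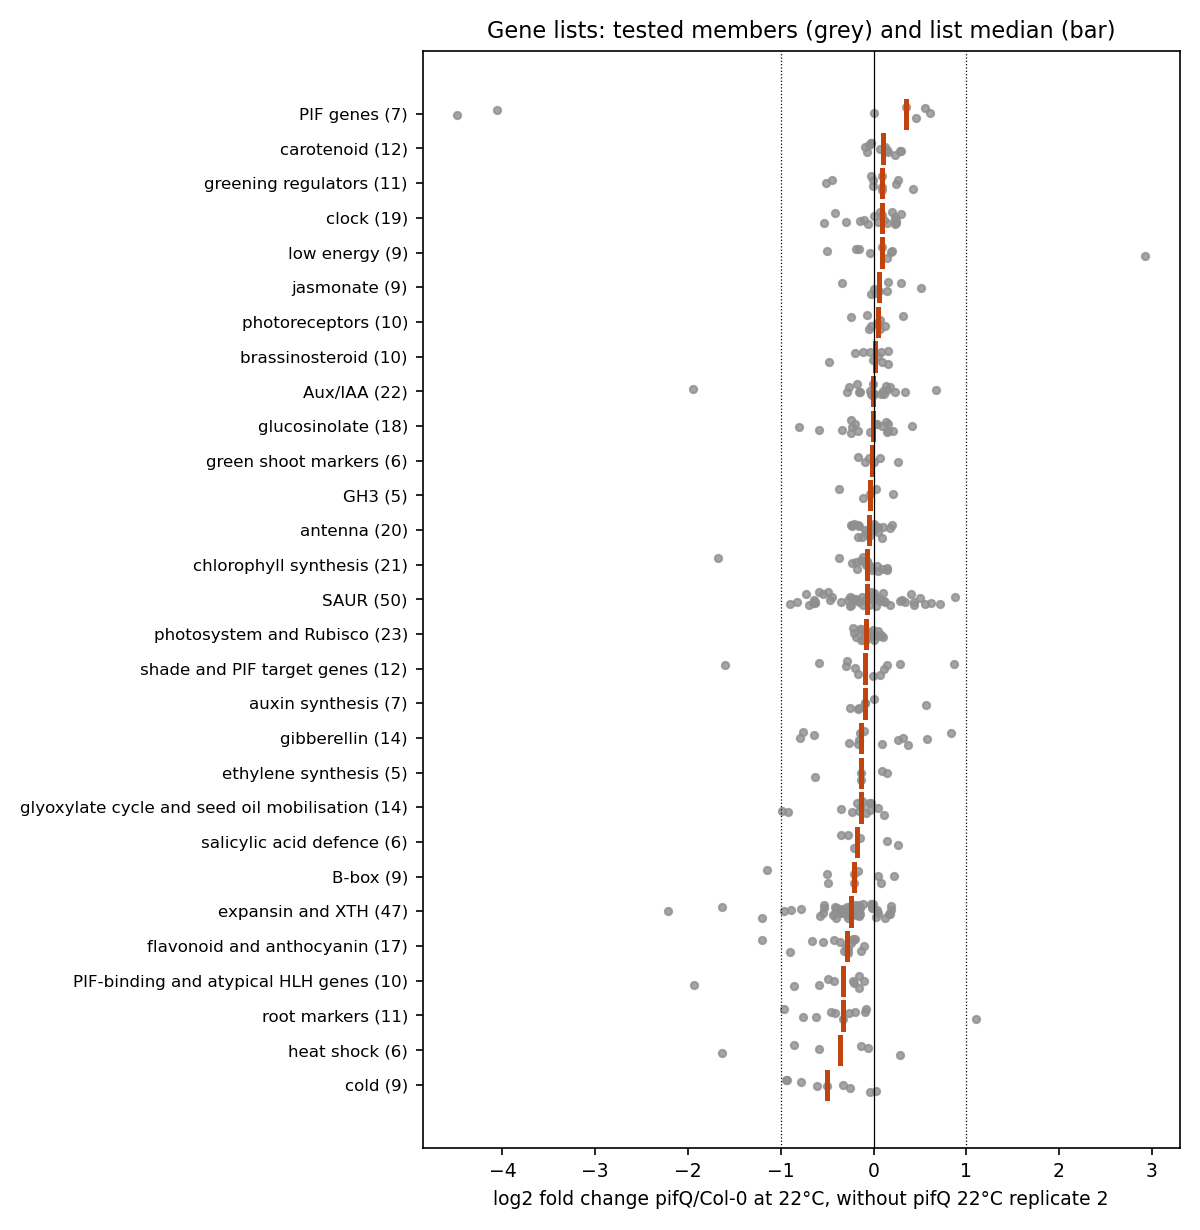
Log2 fold change of pifQ over Col-0 at 22°C without pifQ replicate 2 for the tested members of each gene list (grey points, number in brackets) with the list median (red bar) and dotted lines at 2-fold. Apart from PIF3, PIF5 and QQS no listed gene was called, and the lowest medians are those of the cold, heat shock, root marker and atypical helix-loop-helix lists.

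A few lists had medians off 0 without any called member. The median was -0.34 over 9 tested PIF-binding and atypical helix-loop-helix genes and -0.48 over 6 heat shock genes, or -0.33 and -0.36 without replicate 2. In the flavonoid and anthocyanin list 16 of 17 tested members had negative log2 fold changes, and 17 of 17 without replicate 2 and with segment offsets. Among all genes 8830 of 18078, 9129 of 18385 and 8867 of 18078, respectively, were negative. Members lower at an unadjusted p under 0.05 numbered 5 with all libraries, 7 without replicate 2 and 2 with segment offsets, against 5.17%, 4.37% and 4.05% of all genes. The median was -0.31, or -0.29 without replicate 2 and -0.17 with segment offsets. CHS, chalcone synthase, the first enzyme of the pathway, had 334, 223 and 326 CPM in pifQ and 456, 501 and 494 CPM in Col-0. All pifQ libraries were lower, and the log2 fold change was -0.55 without replicate 2 (95% interval -0.80 to -0.30, edgeR FDR = 0.093). LDOX, which makes anthocyanidins, had 7.88, 18.7 and 12.7 CPM against 18.4, 14.8 and 23.5 CPM, and only replicate 2 overlapped Col-0.

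In the cold-regulated list the median was -0.55 over 8 tested members and -0.50 over 9 without replicate 2. Lower at an unadjusted p under 0.05 were 3 of 8 with all libraries, 7 of 9 without replicate 2 and 4 of 8 with segment offsets, against the shares of all genes given above. RD29A, a dehydration and cold response gene, had 23.6, 13 and 24 CPM in pifQ against 35.6, 31.4 and 42 CPM in Col-0, with no overlap (log2 fold change -0.61 without replicate 2, edgeR FDR = 0.3). COR6.6 had 195, 95.2 and 140 CPM against 209, 299 and 203 CPM (log2 fold change -0.50, edgeR FDR = 0.28). The CBF transcription factors upstream of these genes were near the limit of detection in both genotypes. COR47 and COR413-PM1 had log2 fold changes of 0.08 and 0.03 with all libraries and -0.33 and -0.25 without replicate 2, whose relatively high counts on chromosome 1 and the first part of chromosome 2 hold both genes.

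Cell wall genes formed the longest such list. Of 47 expansin and XTH genes tested without replicate 2, 39 had negative values and 11 of these an unadjusted p under 0.05, with a median of -0.24 and 0 calls. Among all genes of that fit 9129 of 18385 were negative and 4.37% were lower at an unadjusted p under 0.05. With all libraries 31 of 46 were negative, 7 of these at an unadjusted p under 0.05, with a median of -0.20. The values for all genes were 8830 of 18078 and 5.17%. The expansin EXPA14 had 4.04, 3.89 and 3.92 CPM in pifQ against 11.8, 8.86 and 7.21 CPM in Col-0 (log2 fold change -1.20, edgeR FDR = 0.2). XTH6, an enzyme that cuts and rejoins xyloglucan, had 71.3, 47.2 and 74.2 CPM against 98, 95 and 98.8 CPM (log2 fold change -0.42, edgeR FDR = 0.27). The genotypes did not overlap for either.

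Root markers were examined beside these lists. Of 11 tested markers 9 had negative log2 fold changes with all libraries and 10 without replicate 2, with medians of -0.48 and -0.33 and 0 calls. Lower at an unadjusted p under 0.05 were 4 of 11 in either fit, against 5.17% and 4.37% of all genes. The largest change was a rise, of 1.46 with all libraries and 1.11 without replicate 2. Higher at an unadjusted p under 0.05 was 1 of 11 in either fit, against 1100 of 18078 and 573 of 18385 genes. The summed level of the 12 markers was 2819, 2442 and 2492 CPM in pifQ against 2731, 2927 and 2873 CPM in Col-0, ranges that overlap, and most of it came from PYK10, a root beta-glucosidase. NRT2.1, a nitrate transporter, was near 0 in both genotypes. Green shoot markers had a median of 0.07, or -0.02 without replicate 2. In whole seedlings fewer root cells and less RNA per root cell cannot be told apart, and the part of root tissue in the cell wall and other lists was not tested.

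The 28°C libraries of the same genotypes, which the contrast at 22°C does not use, give a second view of its calls. Of the 10 genes called at 22°C 9 had the same sign at 28°C and 7 were called in the same direction, against 113 of 18078 genes called there (0.625%). Without replicate 2, 8 of 8 had the same sign and 6 were called, against 0.821% of genes. The 7 were PIF3, PIF5, QQS, AT1G75945, LTP2, PGL2 and AT2G06995, and the 6 were these without AT2G06995. PIF3 and PIF5 are targeted in the line at both temperatures, so their calls at 28°C say nothing about the other genes. QQS had 161, 124 and 161 CPM in pifQ at 28°C against 20.5, 18.1 and 21.3 CPM in Col-0 (log2 fold change 2.89 ± 0.20). PGL2 had 1.07, 2.24 and 1.04 CPM against 7.62, 11.1 and 6.77 CPM (-2.50 ± 0.33), LTP2 had a log2 fold change of -1.18 ± 0.20 and AT2G06995 of -2.81 ± 0.55. AT1G75945 differed by 4.45 ± 0.41 at 28°C, with 7.72, 9.76 and 9.12 CPM against 0.435, 0.27 and 0.41 CPM, but the difference between temperatures did not pass (edgeR FDR = 0.61).

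ICL, MLS and MAP18 showed no such difference at 28°C. They were named for being called at 22°C, a choice that favours a smaller difference at 28°C. ICL had 389, 373 and 330 CPM in pifQ and 272, 277 and 400 CPM in Col-0 there, overlapping groups with a log2 fold change of 0.20 ± 0.20. MLS was at -0.13 ± 0.18 and MAP18 at -0.15 ± 0.18. The change of the genotype difference from 22°C to 28°C passed the FDR for 11 genes (0.0608%) with all libraries and 29 (0.158%) without replicate 2. It was 1.30 ± 0.29 for ICL with all libraries (edgeR FDR = 0.11) and 1.12 ± 0.24 without replicate 2 (edgeR FDR = 0.039), and passed with segment offsets as well (edgeR FDR = 0.0068). For MLS and MAP18 it did not pass in either fit (edgeR FDR from 0.25 to 0.35). HR4 was at 0.86 ± 0.22 and EARLI1 at 0.89 ± 0.47 at 28°C, and neither was called there in either fit. HR4 did not overlap between the genotypes at 28°C. Without replicate 2 it passed the FDR there (0.004, edgeR) but was short of the 2-fold cutoff, and EARLI1 did not pass (edgeR FDR = 0.3).

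For IAA29 the order was the reverse. It had 1.07, 0.813 and 0.622 CPM in pifQ at 28°C and 8.7, 11.9 and 6.77 CPM in Col-0, a log2 fold change of -3.39 ± 0.37 against -0.12 at 22°C. The difference between temperatures was -3.27 ± 0.65 (edgeR FDR = 0.053), and -3.37 ± 0.71 without replicate 2 (edgeR FDR = 0.034), and it also passed with segment offsets (edgeR FDR = 0.012). HFR1 was at -2.36 ± 0.26 and YUC8 at -1.31 ± 0.26 at 28°C, and both were called there, but their difference from 22°C did not pass (edgeR FDR = 0.16 and 0.45). As lists, 5 of 11 shade and PIF target genes were called lower at 28°C (0.531% of all genes) with a median of -0.81, and 12 of 50 SAUR genes with a median of -0.55 (1 more was called higher), whereas 0 members of either list were called at 22°C. The difference between the temperatures was not tested for the lists.

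**Figure D5:**
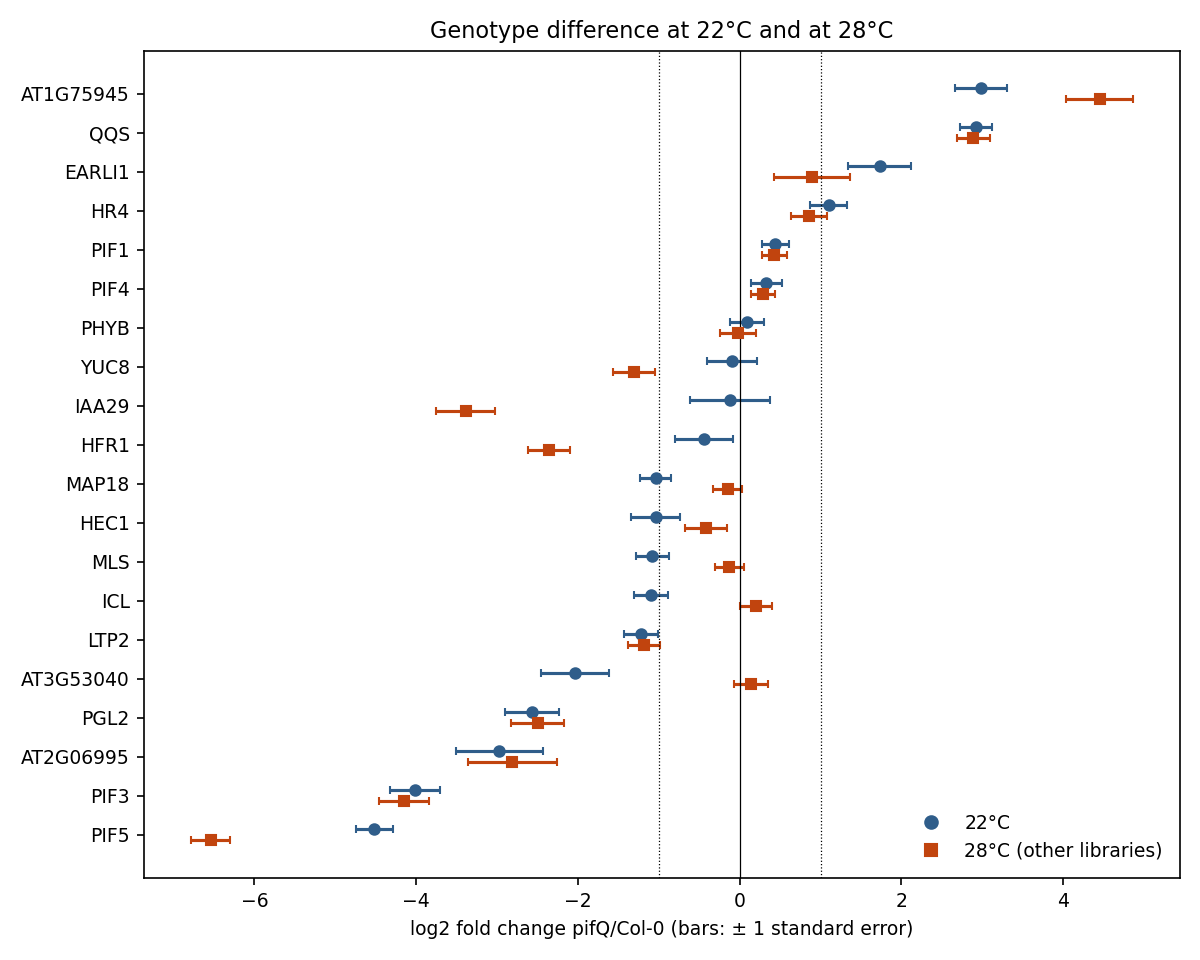
Log2 fold change of pifQ over Col-0 at 22°C (blue circles) and at 28°C (red squares) with bars of 1 standard error, from the fit of all libraries, for called and study-named genes. QQS, LTP2, PGL2, AT2G06995 and PIF3 nearly coincide, and IAA29, HFR1 and YUC8 lie above -1 at 22°C and below -1 at 28°C.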

How the data were processed

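The authors deposited 1 table of raw read counts per gene for 18 libraries. By the study's methods and the submitters' processing notes, 3′ Tag-Seq reads were checked with FastQC, aligned to TAIR10 with TopHat and Bowtie2 and counted with HTSeq, and differences were called with edgeR (versions and strand setting are not given in the sources used here). The replicates are described as independent biological ones. Of 33655 rows, 32548 were gene loci, all matched to RefSeq TAIR10.1 for names, positions and promoters. The other 1107 identifiers held at most 0.0118% of a library. They were not removed before the filter and the fit, but stayed out of the step search.

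Counts were normalized by TMM, filtered by filterByExpr and fitted in edgeR 4.0.16 (R 4.3.3) with glmQLFit as 1 model of 6 groups, following the tool and the 2-fold and FDR 0.05 cutoffs of the study. Adjusted p-values (Benjamini-Hochberg) are over all tested genes, and SE was derived from the F statistic. CPM is on the total of the tested genes times the TMM factor of the fit of all libraries. The step search and the filter at 1 CPM used CPM on raw totals. Steps in a library were searched along gene order against the median of the other libraries, over genes of at least 10 CPM. Alternatives were leaving out each compared library, segment offsets for pifQ 22°C replicate 2, only the compared libraries, a replicate block, RLE, no filter, a filter at 1 CPM and DESeq2 1.42.0. The fit was tested on simulated counts.

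Totals ran from 3631558 to 6285632 counts, and 3 counts, the limit that a count of 0 allows, are 5.77e-05% to 7.68e-05% of the 6 compared libraries (counting error only). Named genes were the 4 targeted PIF genes, genes the study names, list members called with and without replicate 2, and the largest changes called in both fits with at least 10 CPM in the higher group and no overlap; exceptions are marked. The comparison, members and lists were chosen with earlier results of these data known.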

Additional observations from a re-analysis of the deposited data

Results flagged for a closer look

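Among the genes named here, the genotype difference itself differed between 22°C and 28°C for 3 by edgeR's interaction test. This held when pifQ 22°C replicate 2 was left out or given segment offsets, but not with all libraries as counted. Over all tested genes 29 (0.158%) passed without replicate 2. ICL and AT3G53040 were named for calls at 22°C, and the interaction uses the same 22°C values. That choice favours a smaller difference at 28°C for both. For IAA29 the difference at 28°C minus that at 22°C was -3.37 on the log2 scale (edgeR FDR = 0.034), with 1.36 CPM as the pifQ mean of replicates 1 and 3 at 22°C. For ICL it was 1.12 (edgeR FDR = 0.039). For AT3G53040 it was 2.37 (edgeR FDR = 0.048), the gene having 21, 29.7 and 20.5 CPM in pifQ at 28°C against 24.8, 20.2 and 19.5 CPM in Col-0. With all libraries the edgeR FDR was 0.053, 0.11 and 0.11, and with segment offsets it was 0.012, 0.0068 and 0.024. PIF5 passed with segment offsets only among these fits, at -2.03 (edgeR FDR = 0.045).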

How the results depend on the processing

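PIF3, PIF5, QQS, AT1G75945 and PGL2 were called in 16 of 16 settings, LTP2 in 13, AT2G06995, ICL and MLS in 9, MAP18 in 8, HR4 in 7, EARLI1 in 6, AT3G53040 in 5 and HEC1 in 1. Leaving out 1 of the 6 libraries at a time gave 5 to 70 called genes, 2 to 14 higher and 3 to 56 lower. The 70 came without pifQ replicate 1, which leaves replicate 2 as 1 of 2 pifQ libraries, and 48 of them lay on chromosome 5. With segment offsets as well, an alternative chosen after seeing the data, that count was 17 (9 higher and 8 lower). Without pifQ replicate 2 there were 4 higher and 4 lower, and 5 were called without pifQ replicate 3 and 5 without Col-0 replicate 2. Segment offsets alone gave 12 calls (4 higher), the 6 compared libraries alone gave 5 (3 lower), and 5 libraries without pifQ replicate 2 gave 15 (5 higher and 10 lower). Without a filter 37 were called (14 higher and 23 lower). RLE and the filter at 1 CPM gave 10 each and DESeq2 gave 15 (3 higher and 12 lower). The causes were not tested. Directions turned only for genes near 0: with 1 library left out YUC8 ranged from -0.29 to 0.27 (highest without Col-0 replicate 1), IAA29 from -0.46 to 0.13 (0.13 and 0.08 without Col-0 replicates 2 and 3) and PHYB from -0.05 to 0.23, and PHYB was -0.04 with offsets and -0.06 in 5 libraries.

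Same-numbered libraries of the 2 genotypes had correlations of 0.074, 0.01 and 0.051 in their deviations from the group means. The pifQ means include the count loss of replicate 2, so these values cannot decide whether the numbers pair the samples. The replicate block called 10 genes, all 10 shared, and pifQ replicates 1 and 3, but not 2, correlated best with their own number. The biological coefficient of variation was 0.128 with all libraries and 0.0921 without pifQ replicate 2, and depth limits genes of a few CPM.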
